A study of Mus musculus with 4 samples.

Results

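The genes described here are the nuclear genes for the subunits of the oxidative phosphorylation complexes. They were chosen by symbol, as the mouse genes named Nduf with a, b, c, s or v and a number, Sdha to Sdhd, Uqcr, Cox4 to Cox8 or Atp5, with at least 100 UMIs (unique molecular identifiers, each standing for 1 captured mRNA molecule) over all barcodes. Of the 32285 genes in the tables, 85 matched and 83 were kept; Cox7b2 with 92 UMIs and Cox8c with 5 UMIs fell below the limit. The 83 genes comprised 36 of complex I (NADH dehydrogenase), 4 of complex II (succinate dehydrogenase), 8 of complex III (cytochrome bc1 complex), 18 of complex IV (cytochrome c oxidase, with Ndufa4 and Ndufa4l2 placed there) and 17 of complex V (ATP synthase). The 13 protein-coding genes of the mitochondrial genome, written mt-, are given beside them.

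Hearts of E10.5 mouse embryos were dissociated for 10x single-cell RNA sequencing, which gave 4 libraries. Control embryos were Tie2 f/f without Cre, and carried the same floxed alleles of Tie2 (Tek), an angiopoietin receptor of endothelial cells, as the knockouts. Tie2-cko embryos were Nfatc1Cre;Tie2 f/f, in which Cre is knocked in at the Nfatc1 locus and acts in the endocardium rather than in the heart muscle. Controls are libraries 5 and 7 and Tie2-cko are libraries 6 and 8, and all embryos were of a mixed 129 and C57/BL6 background. By the study's methods control and knockout libraries from the same litter were sequenced together, but the labels do not say which libraries match.

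In the respiratory chain, complexes I and II take electrons from NADH and succinate, complex III passes them on to cytochrome c, complex IV passes them to oxygen, and complex V uses the resulting proton gradient to make ATP. Complexes I, III, IV and V are assembled from subunits of both genomes, whereas complex II is wholly nuclear. Several complex IV subunits exist as a pair of genes, with an isoform found in most tissues and another found mainly in heart and skeletal muscle (Cox6a2, Cox7a1, Cox8b) or known for particular tissues and for low oxygen (Cox4i2, Ndufa4l2), and the membrane ring subunit c of complex V is encoded by Atp5g1, Atp5g2 and Atp5g3, whose mature proteins are the same.

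After filtering, 5684 to 10097 cells per library remained, with median depths of 14878 to 25875 UMIs per cell, library 6 being the deepest and smallest. Libraries shared 29 to 62 barcodes with each other, at most 0.521% of the smaller library. The cells fell into 27 clusters, formed without the genes described here. Clusters were named from marker genes, and those of low depth or that did not meet the marker criteria were left unnamed. Cardiomyocytes (CMs, with Tnnt2, Actc1 and Ttn) numbered 1422 to 4468 per library, endocardial cells (EdCs) 255 to 1004, cushion and outflow mesenchymal cells (MCs) 288 to 1209 and epicardial cells 154 to 651. Tek, the deleted gene, was at 0.890 (library 5) and 1.30 (library 7) UMIs per 10000 in control EdCs and lower with the deletion, at 0.212 (library 6) and 0.185 (library 8). Library 5 differed from the others in holding Xist RNA and in its haemoglobin RNA, which reached 54.8 UMIs per 10000 in CMs against 16.2 in library 6, 23.9 in library 7 and 9.27 in library 8.

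CMs held the largest share of these transcripts. The level of a gene is its mean number of UMIs per 10000 UMIs of a cell, so it is a share of the captured RNA. Summed over the 83 genes it was 709, 699, 819 and 837 in the CMs of libraries 5, 6, 7 and 8, a mean of 766 ± 72.0 (SD, n = 4), or 7.66% of all UMIs. EdCs reached 334, 300, 393 and 376 (mean 351 ± 41.9), MCs 344, 318, 400 and 398 (mean 365 ± 40.5) and epicardial cells 335, 307, 384 and 385 (mean 353 ± 38.6). Among the named types every library thus had its highest level in CMs, without overlap between CMs and the others. Low-depth clusters that were left unnamed, outside these comparisons, stood at 439, 489 and 690 over all libraries. Erythroid cells were the lowest of the named types, with 197 to 244 UMIs per 10000. Haemoglobin RNA took a large part of their total, with Hbb-y at 1949 and Hba-x at 1255 UMIs per 10000, which lowers the share of all other genes. Their level without haemoglobin RNA is not given here, so this rank holds for shares of all UMIs only. Within each library the CM level exceeded that of EdCs by 2.08- to 2.33-fold, that of MCs by a mean of 2.1-fold and that of epicardial cells by a mean of 2.18-fold. Single cells were separated as well: in library 5 the 5th percentile of CMs was 526 UMIs per 10000, and 0 of 612 EdCs lay above it (95% Wilson interval, for counting error only, 0 to 0.624%), while the largest such share was 0.996% of the EdCs of library 7 (10 of 1004).

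**Figure D1:**
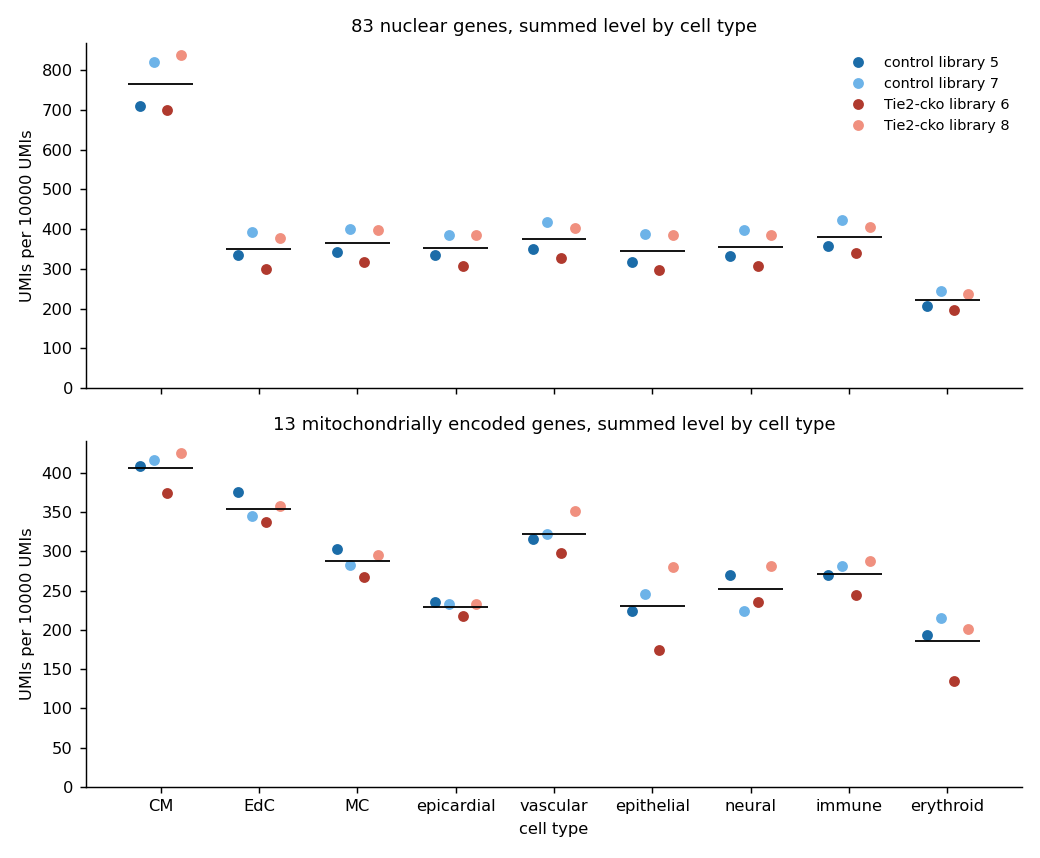
Summed level (UMIs per 10000 UMIs, mean over cells) of the 83 nuclear genes (top) and the 13 mt- genes (bottom) by cell type, with a dot for each library and a line for the mean of the 4. Nuclear genes reached 699 to 837 in CMs and at most 422 in any other named type, whereas mt- genes ranged from 374 to 426 in CMs and from 337 to 376 in EdCs.

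The mitochondrially encoded genes differed less between CMs and EdCs. The 13 mt- genes summed to 409, 374, 416 and 426 UMIs per 10000 in CMs of libraries 5, 6, 7 and 8 and to 376, 337, 345 and 358 in EdCs, a ratio of 1.15 within libraries (range 1.09 to 1.21). In MCs they stood between 268 and 303 and in epicardial cells between 218 and 236, ratios of 1.41 and 1.77 to the CM level. Nuclear genes therefore outweighed mt- genes 1.74- to 1.97-fold in CMs and 1.41- to 1.66-fold in epicardial cells, while in EdCs the ratio was 0.890 and 0.889 in libraries 5 and 6 and 1.14 and 1.05 in libraries 7 and 8. EdCs had a ratio below that of epicardial cells in every library although the summed nuclear level of the 2 types was alike. Cells with over 10% mt- UMIs had been removed, which bounds these mt- levels.

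Tested gene by gene, nearly every subunit was higher in CMs. For each library the counts of the cells of a type were added up and compared with edgeR's quasi-likelihood test, with the library as a block and Benjamini-Hochberg adjustment over 13777 genes; a gene was called at an adjusted p under 0.05. Against EdCs all 83 genes were higher (40.7% of all tested genes were called higher and 39.3% lower), with a median log2 fold change of 1.48 against 0.01 for all genes. Against MCs 82 were higher (39.9% of all genes higher, 38.5% lower) with a median of 1.43, the exception being Cox6b2 (0.19, adjusted p = 0.0622), and against epicardial cells all 83 (38.1% higher, 36.4% lower) with a median of 1.42. No value of the 83 lay below 0 in any of these comparisons. With library size alone in place of TMM normalization, which moved the median of all genes to -0.31, -0.35 and -0.27, the counts were 83, 81 and 82 higher with medians of 1.16, 1.06 and 1.14, and Cox6b2 turned to -0.17 against MCs and -0.03 against epicardial cells.

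**Figure D2:**
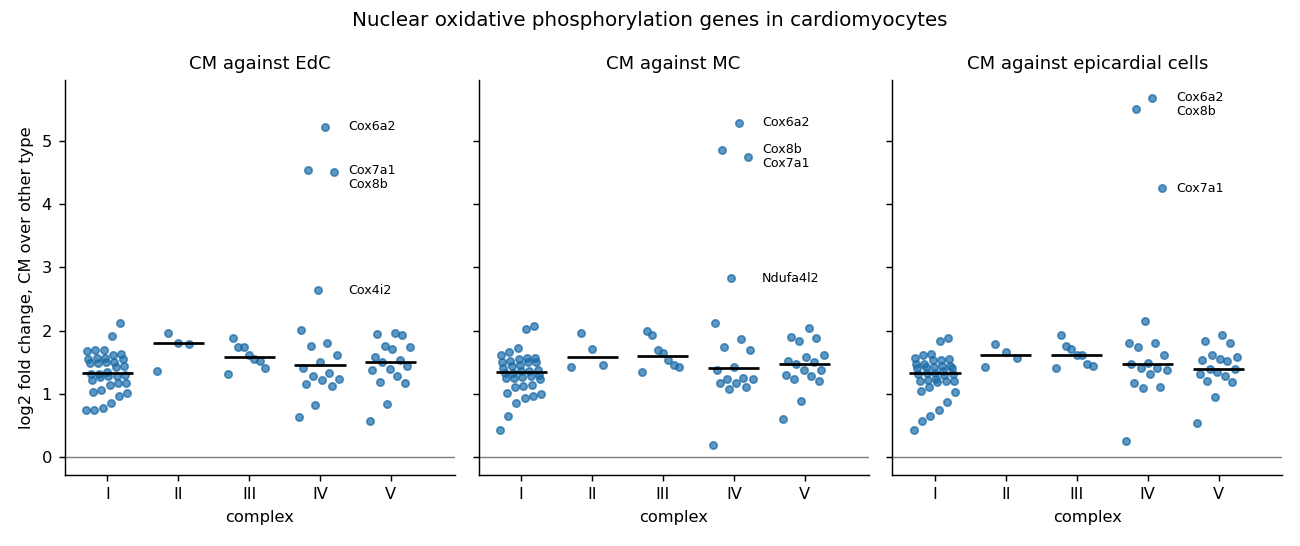
Log2 fold change of each of the 83 genes in CMs over EdCs (left), MCs (middle) and epicardial cells (right), by complex, with a dot per gene and a line at the median of the complex. Every dot lies above 0 under TMM normalization, and Cox6a2, Cox7a1 and Cox8b of complex IV stand apart at 4.25 to 5.69.

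Complex I has 36 nuclear genes here, and their median log2 fold change over EdCs was 1.33 (range 0.74 to 2.12). Ndufv3, a small subunit beside the NADH-binding site, showed the largest difference of the complex: it stood at 6.38, 6.44, 7.54 and 8.22 UMIs per 10000 in CMs of libraries 5, 6, 7 and 8 and at 1.85, 1.83, 2.34 and 2.27 in EdCs, a log2 fold change of 2.12 ± 0.05 (SE; adjusted p = 3.66e-18). Ndufs1, the largest subunit, which carries iron-sulphur clusters, followed with 1.92 ± 0.04. At the low end were the accessory subunits Ndufa7 (0.74), Ndufa3 (0.75) and Ndufa2 (0.77). Every complex I gene was above its EdC level in 4 of 4 libraries.

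The 4 genes of complex II, the enzyme shared by the citric acid cycle and the respiratory chain, had a median of 1.80. The membrane anchor Sdhd stood at 2.07, 2.47, 1.71 and 1.95 UMIs per 10000 in CMs against 0.639 to 0.694 in EdCs (log2 fold change 1.96 ± 0.06), and the flavoprotein Sdha, which oxidises succinate, at 1.63, 1.82, 1.40 and 1.5 against 0.687 to 0.855 (1.36 ± 0.04). The levels did not overlap for either gene. The 8 genes of complex III had a median of 1.58, from 1.31 for Uqcrb to 1.88 ± 0.04 for Uqcrfs1, the Rieske iron-sulphur protein, whose level was 4.99 to 5.96 in CMs and 1.70 to 2.19 in EdCs.

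In complex IV the median was 1.46, but the range was the widest, from Cox6b2 at 0.64 (higher in 3 of 4 libraries) to Cox6a2 at 5.23. The muscle isoform Cox6a2 stood at 8.56, 8.84, 12.2 and 11.7 UMIs per 10000 in CMs of libraries 5, 6, 7 and 8 and at 0.301, 0.144, 0.546 and 0.532 in EdCs (log2 fold change 5.23 ± 0.18, adjusted p = 6.88e-16). Cox7a1 stood at 2.48, 2.55, 2.88 and 3.29 against 0.134, 0.0895, 0.21 and 0.215 (4.54 ± 0.13). Cox8b was sparse even in CMs, at 0.145 to 0.183 against 0.00718 to 0.0116 (4.51 ± 0.13). These 3 muscle isoforms were the only genes of the 83 above 4 in each of the 3 comparisons. Their partner isoforms Cox6a1 (1.12), Cox7a2 (1.5) and Cox8a (1.75) differed by amounts like those of the other subunits. The low level of the muscle isoforms in EdCs was of the size shown by contractile transcripts there: Cox6a2 in EdCs was 3.54% of its CM level (1.63 to 4.53% by library), Cox7a1 5.69% and Cox8b 5.84%, beside 3.40% for Myl7, 4.10% for Myl4, 4.82% for Tnnc1, 3.47% for Actc1 and 5.26% for Tnnt2. The shares of Cox7a1 and Cox8b were above that of each of these contractile transcripts. Whether the counts of Cox6a2, Cox7a1 and Cox8b in EdCs are free RNA or expression was not tested. In the small neural, immune and vascular clusters the shares varied widely between libraries, up to 245% for Cox8b in the neural cells of library 8. Cox4i2 and Ndufa4l2 in EdCs were above these EdC shares, at 17.4% and 39.6% of their CM level.

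For complex V the median was 1.51. Atp5o, the stalk subunit that joins the rotor housing to the membrane part, was 18.5 to 20.3 UMIs per 10000 in CMs and 5.53 to 6.96 in EdCs (1.97 ± 0.04). The smallest difference among all 83 genes over EdCs was that of Atp5g2, at 9.10, 9.92, 9.27 and 9.68 in CMs and 7.75, 7.77, 8.14 and 8.24 in EdCs (0.56 ± 0.04, adjusted p = 1.96e-10). Atp5g1, which encodes the same mature subunit c, was 18.8, 18.9, 23.2 and 21.2 in CMs and 6.45, 5.26, 8.78 and 6.67 in EdCs (1.94 ± 0.06), and Atp5g3 differed by 1.94 as well. Each UMI stands for 1 captured molecule, but whether these genes are captured and counted alike was not tested. The shares below are therefore shares of UMIs, compared between cell types. As means of 4 libraries, Atp5g1, Atp5g2 and Atp5g3 made up 49.3%, 22.4% and 28.3% of subunit c UMIs in CMs. In EdCs they made up 36.2%, 42.9% and 20.9%. The gene with the most UMIs was Atp5g1 in CMs of all 4 libraries, and Atp5g2 in EdCs of libraries 5, 6 and 8, library 7 having 41.1% Atp5g1 and 38.7% Atp5g2. MCs (34.7% Atp5g1, 43.2% Atp5g2) and epicardial cells (37.7% and 41.3%) resembled EdCs. Part of the 3′ sequence of Atp5g1 and Atp5g2 is shared with other annotated genes, 26.6% and 45.7% of the 90-base stretches in the last 400 bases of the transcripts. The rest of the transcripts was not checked, and the bearing of this on the levels was not tested. Such sharing touched 17 of the 83 genes and was above 50% for Atp5l alone, at 70.7%.

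**Figure D3:**
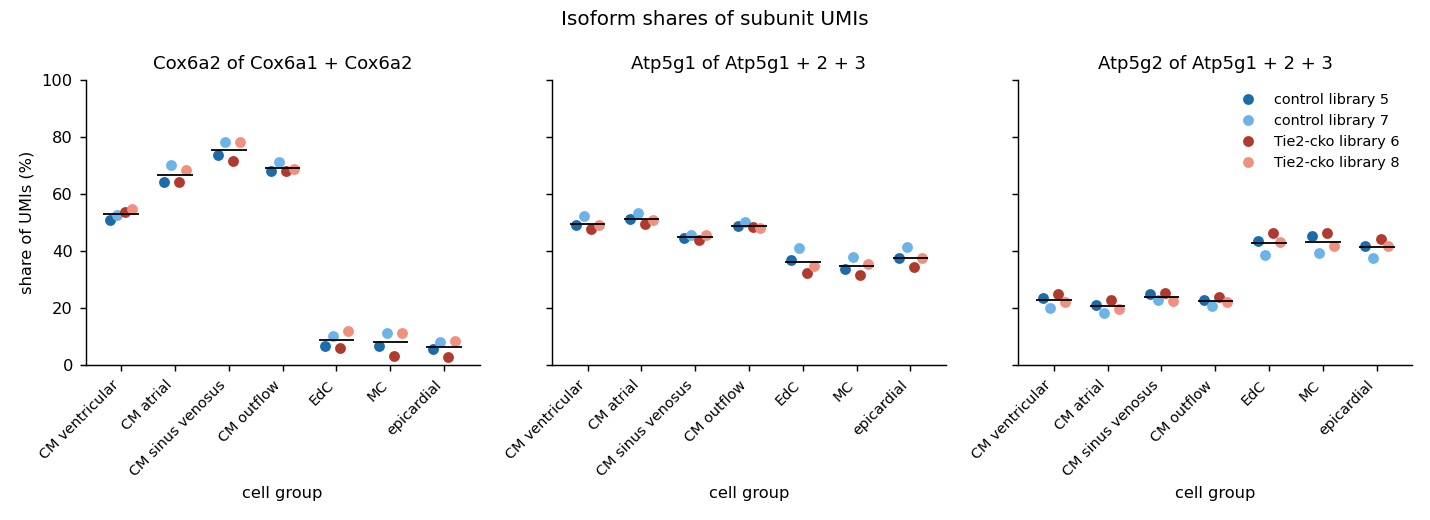
Share of UMIs (%) of Cox6a2 within COX6A (left), and of Atp5g1 (middle) and Atp5g2 (right) within the 3 subunit c genes, by cell group, with a dot per library and a line at the mean. Cox6a2 rises from 52.9% in ventricular to 75.4% in sinus venosus CMs, and Atp5g1 and Atp5g2 exchange places between CMs and the other types. Sinus venosus stands for sinus venosus or atrioventricular canal.

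The promoters of the genes were searched for motifs of NRF1 and GABPA, nuclear factors known for activating respiratory chain genes, and of factors known from muscle. RefSeq windows (build GRCm38.p6) were given for 68 of the 83 genes, and the 250 bases before the start were searched on both strands in 73 windows of these genes and 32851 windows in all. GCGCATGC, the core of the NRF1 site, was in 10.96% of the windows of these genes and 2.26% of all. CCGGAAG, for GABPA, was in 16.4% against 6.91%, and AAGGTCA, for oestrogen-related receptors, in 6.85% against 4.08%. The muscle motifs CATTCC (MCAT) and CANNTG (E-box) were in 10.96% and 60.3% against 12.6% and 66.2%. Cox7a1 and Cox8b held none of the first 3 motifs and each held an E-box, and the same was true of their partner isoforms Cox7a2 and Cox8a. The sequences are the 100 bases before the start of a partner isoform with a GABPA match in the stretch shown and 2 NRF1 matches further up (Cox6a1, chr5:115348959-115349058, minus strand), of the subunit c gene that differed least (Atp5g2, chr15:102671048-102671147, minus strand) with 2 overlapping NRF1 matches, and of the muscle isoforms Cox7a1 (chr7:30184071-30184170, plus strand) and Cox8b (chr7:140900447-140900546, minus strand). Capitals mark the NRF1 and GABPA matches, and a match describes the letters alone.
Cox6a1: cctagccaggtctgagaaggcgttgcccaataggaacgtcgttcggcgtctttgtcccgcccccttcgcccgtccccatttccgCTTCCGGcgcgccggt
Atp5g2: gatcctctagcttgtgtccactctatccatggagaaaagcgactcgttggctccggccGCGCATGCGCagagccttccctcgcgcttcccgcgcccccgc
Cox7a1: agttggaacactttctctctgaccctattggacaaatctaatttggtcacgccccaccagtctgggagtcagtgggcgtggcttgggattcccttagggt
Cox8b: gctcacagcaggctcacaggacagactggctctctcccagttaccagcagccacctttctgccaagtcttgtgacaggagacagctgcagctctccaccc

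The mt- genes were all higher in CMs, with smaller differences over EdCs (13 of 13 called, median log2 fold change 0.61, range 0.33 for mt-Co3 to 1.01 for mt-Nd1) than over MCs (13 of 13, median 0.89) and epicardial cells (13 of 13, median 1.15). With library size alone 11 of 13 remained called over EdCs, with a median of 0.29. The deposited levels of mt-Co3 were higher in CMs in 1 of 4 libraries, and those of mt-Co1 and mt-Atp8 in 2 of 4, so the direction for these 3 rests on the normalization. mt-Nd1 stood at 27.2, 27.6, 26.8 and 27.7 UMIs per 10000 in CMs and at 17.8, 17.6, 16.3 and 16.2 in EdCs, without overlap.

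Other genes of the pathway moved with the subunits. Of 50 tested assembly factors, 46 were higher in CMs than in EdCs and 0 lower by edgeR (48 and 0 against MCs, 47 and 2 against epicardial cells, the 2 being Cox19 and Cox16). With library size alone 42, 39 and 40 were higher and 4, 6 and 3 lower. All 18 tested genes of the citric acid cycle and pyruvate dehydrogenase were higher than in EdCs, led by Idh3a, a subunit of isocitrate dehydrogenase, at 2.81 ± 0.05, and all 12 carriers and porins, led by Slc25a4, the muscle ADP/ATP carrier, at 2.53 ± 0.04. Cyc1 (2.33), the cytochrome c1 subunit of complex III, and Cycs (2.02), the cytochrome c that carries electrons from complex III to complex IV, led the 6 of 7 remaining subunits and electron carriers that were higher. The regulators were divided, with 14 of 23 higher than in EdCs and 6 lower (11 and 6 with library size alone). The coactivators Ppargc1a (4.83 ± 0.12) and Ppargc1b (4.17 ± 0.15) and the oestrogen-related receptors Esrrg (4.27 ± 0.15) and Esrra (2.38 ± 0.07) were higher in CMs, whereas Nrf1 (-0.31 ± 0.07) and Gabpb1 (-1.01 ± 0.07) were lower. Nrf1 was at 0.118 to 0.155 UMIs per 10000 in CMs and at 0.182 to 0.209 in EdCs, so its levels did not overlap.

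Within the heart muscle the summed level hardly differed between regions, while single isoforms differed several-fold. CM clusters were named ventricular (879 to 2374 cells per library), atrial (167 to 693), sinus venosus or atrioventricular canal (184 to 611, called sinus venosus below) and outflow tract (192 to 790). The short name covers both sites, which were not told apart. Among the markers of that cluster Bmp2 stood at 2.46, Shox2 at 2.03 and Tbx18 at 0.0975 UMIs per 10000. The 83 genes summed to 697 to 829 UMIs per 10000 in ventricular, 718 to 849 in atrial, 664 to 890 in sinus venosus and 694 to 810 in outflow CMs, and within libraries the last 3 regions stood at 1.04, 1.03 and 1.01 times the ventricular level on average. The mt- genes summed to 368 to 419 in ventricular, 325 to 433 in atrial, 435 to 488 in sinus venosus and 391 to 414 in outflow CMs. Sinus venosus CMs were above ventricular CMs for mt- genes in each library, by 1.07- to 1.18-fold. Median depths also differed, from 12848 to 30140.5 UMIs per cell in sinus venosus to 24318 to 51359 in ventricular CMs.

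Each region was then tested against the mean of the other 3 over 12995 genes. In ventricular CMs 37 of the 83 genes were called higher and 17 lower (31.0% and 31.1% of all genes), in atrial CMs 60 and 7 (30% and 26.3%), in sinus venosus CMs 7 and 63 (29.1% and 29.6%) and in outflow CMs 16 and 23 (25.3% and 23.9%). The medians were small, 0.05, 0.17, -0.18 and -0.01. With library size alone the counts became 28 and 33, 30 and 25, 33 and 27, and 25 and 19, with medians of -0.02, 0.01, 0.00 and 0.02, while the median of all genes moved to -0.07, -0.15, 0.19 and 0.03. The shares of all genes called with library size alone are not given here. No direction of the whole set by region is therefore stated. The 40 results for genes named by the rule for a region kept their direction and call in each setting run. That rule took the largest called changes with the same sign in every library, so this says nothing of the other genes.

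Outflow CMs were marked by 2 complex IV isoforms. Cox4i2, which takes the place of Cox4i1 as the regulatory subunit, stood at 1.73, 1.70, 0.805 and 1.04 UMIs per 10000 in outflow CMs of libraries 5, 6, 7 and 8, at 0.899, 0.890, 0.591 and 0.623 in sinus venosus CMs, at 0.194, 0.179, 0.0610 and 0.0772 in ventricular CMs and at 0.0942, 0.0782, 0.0241 and 0.0467 in atrial CMs. The order of the regions was the same in all 4 libraries. The log2 difference from the mean of the other regions was 2.81 ± 0.11 in outflow (adjusted p = 1.29e-12), 1.62 ± 0.12 in sinus venosus, -1.71 ± 0.13 in ventricular and -2.71 ± 0.17 in atrial CMs. Ndufa4l2, the counterpart of the complex IV subunit Ndufa4, followed the same order on average, with 0.595, 0.571, 0.253 and 0.322 in outflow and 0.0565, 0.0438, 0.0187 and 0.020 in atrial CMs (2.26 ± 0.18 and -2.69 ± 0.27); in library 7 sinus venosus CMs, at 0.284, were above outflow CMs. Both isoforms remained minor, Cox4i2 making up 4.47% of COX4 UMIs in outflow and 0.292% in atrial CMs, and Ndufa4l2 2.42% and 0.159% of the UMIs of its pair. The highest Ndufa4l2 level lay outside the muscle, in the neural cluster of 14 to 78 cells per library, at 1.36 to 2.57 UMIs per 10000 and 14.6% of its pair. Cox6b2, an isoform known from testis, was also highest in outflow CMs (0.418 to 0.499, log2 difference 0.92 ± 0.07) and lowest in atrial CMs (0.132 to 0.211, -0.94 ± 0.08), and in erythroid cells it made up 20.5% of COX6B UMIs against 1.56% in CMs. Over the 16 combinations of region and library, the levels of Cox6b2 and Ndufa4l2 were the most like that of Cox4i2 (Pearson r 0.97 for both), as a description of points that share libraries.

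**Figure D4:**
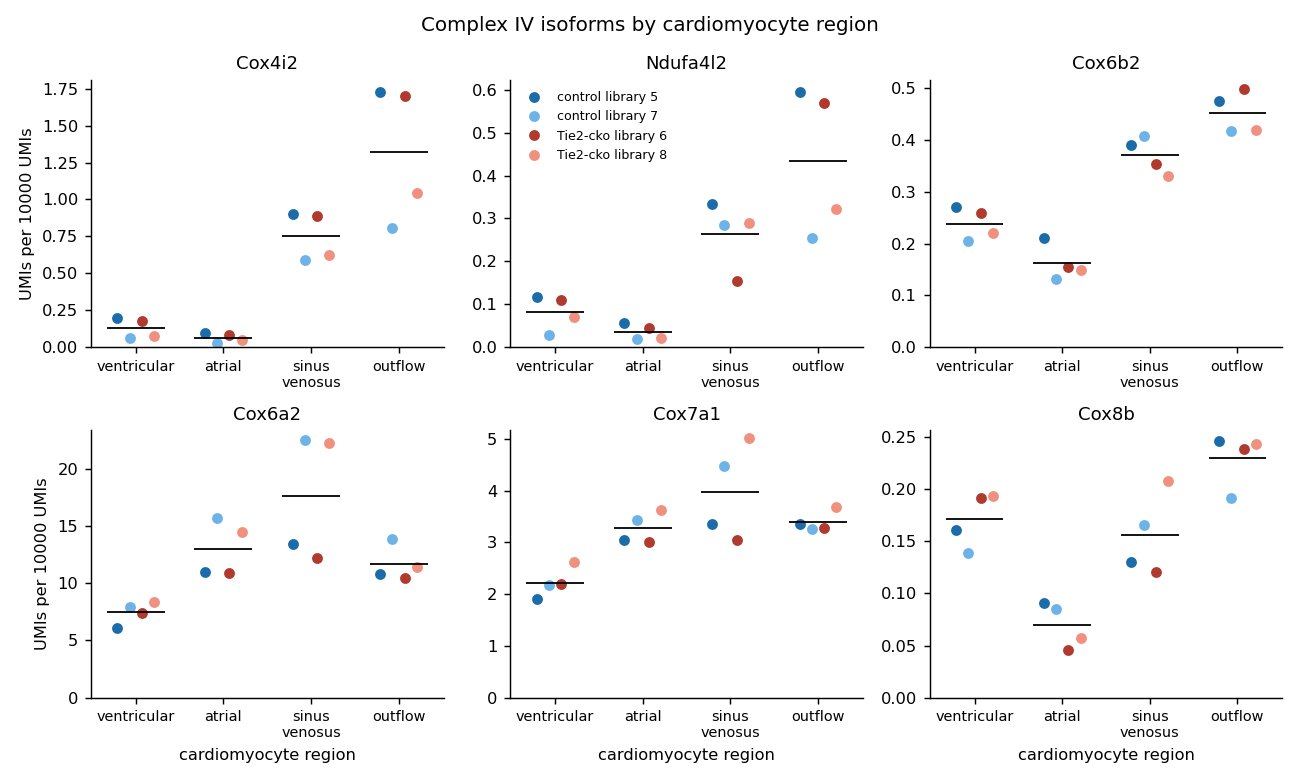
Level (UMIs per 10000 UMIs, linear axes from 0) of 6 complex IV isoforms in the CMs of each region, with a dot per library and a line at the mean. Cox4i2, Ndufa4l2 and Cox6b2 are highest in outflow and sinus venosus CMs, Cox6a2 and Cox7a1 in sinus venosus CMs, and Cox8b is lowest in atrial CMs. Sinus venosus stands for sinus venosus or atrioventricular canal.

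The muscle isoforms had a different order. Cox6a2 stood at 6.1, 7.41, 7.93 and 8.34 UMIs per 10000 in ventricular CMs of libraries 5, 6, 7 and 8, at 10.95, 10.9, 15.7 and 14.5 in atrial CMs, at 13.4, 12.2, 22.5 and 22.2 in sinus venosus CMs and at 10.8, 10.4, 13.9 and 11.4 in outflow CMs. It was lowest in ventricular and highest in sinus venosus CMs in every library (-0.93 ± 0.07, adjusted p = 2.47e-09, and 0.60 ± 0.06, adjusted p = 1.87e-07). Its share of COX6A UMIs was 50.7 to 54.6% in ventricular, 64.1 to 70.0% in atrial, 71.5 to 78.3% in sinus venosus and 68.0 to 71.4% in outflow CMs. The share was 8.82% in EdCs, where the level of Cox6a2 was 3.54% of that in CMs. Cox7a1 followed it, at 1.91 to 2.61 in ventricular and 3.05 to 5.01 in sinus venosus CMs (-0.67 ± 0.06 and 0.32 ± 0.06), with 10.8% and 20.6% of the UMIs of Cox7a1 and Cox7a2, although in libraries 5 and 6 outflow CMs, at 3.36 and 3.27, were above sinus venosus CMs, at 3.35 and 3.05. Cox7a1 and Ndufa7 were the members most like Cox6a2 over the 16 points (r 0.94 and 0.90). Ndufa1, a membrane-arm subunit of complex I encoded on the X chromosome, shared the low ventricular level, at 1.74, 2.14, 2.65 and 2.93 against 3.53, 3.75, 5.54 and 5.72 in sinus venosus CMs (-0.65 ± 0.03 and 0.41 ± 0.03). Cox8b did not follow this order: it was lowest in atrial CMs, at 0.0459 to 0.0905 (-1.29 ± 0.14), and highest in outflow CMs, at 0.192 to 0.247 (0.79 ± 0.12).

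Sdha, Ndufs7, Uqcrc1 and Uqcrc2 were higher in ventricular CMs than in the other CM regions in every library. Sdha stood at 1.81, 1.99, 1.56 and 1.72 UMIs per 10000 there against 1.24, 1.33, 1.03 and 1.13 in atrial CMs (0.43 ± 0.04, adjusted p = 1.43e-08, in ventricular CMs). Ndufs7, a core subunit that hands electrons to ubiquinone, was 5.12 to 6.02 in ventricular and 3.35 to 4.27 in sinus venosus CMs (0.41 ± 0.04 and -0.50 ± 0.04), and the core proteins Uqcrc1 and Uqcrc2 of complex III differed likewise (0.40 ± 0.04 and 0.36 ± 0.04 in ventricular, -0.52 ± 0.05 and -0.48 ± 0.04 in sinus venosus CMs). For Ndufs7 and Uqcrc1 the ventricular and sinus venosus levels did not overlap. Sdhb was higher in ventricular (0.34 ± 0.04) and atrial (0.36 ± 0.04) and lower in sinus venosus CMs (-0.48 ± 0.04). All 4 genes of complex II were called higher in ventricular and lower in sinus venosus CMs, also with library size alone. Atrial CMs had their largest increases in Ndufb4 (0.49 ± 0.04), Atp5g1 (0.38 ± 0.04), Ndufs8 (0.38 ± 0.04) and Ndufb8 (0.38 ± 0.03), and a lower level of Ndufs6 (-0.30 ± 0.04). Ndufb4, Ndufs8, Ndufa5, Ndufb8 and Ndufb11, all of complex I, led the lower genes of outflow CMs, at -0.47 to -0.23.

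In the other genes of the pathway, 14 of 18 citric acid cycle genes were called higher and 1 lower in ventricular CMs, 15 and 2 in atrial CMs, 0 and 16 in sinus venosus CMs and 1 and 4 in outflow CMs by edgeR. With library size alone these were 12 and 1, 6 and 3, 2 and 14, and 4 and 2. Cyc1, a catalytic subunit of complex III outside the symbol rule, was higher in ventricular (0.38 ± 0.04) and lower in sinus venosus CMs (-0.63 ± 0.04). The mitochondrial aspartate/glutamate carrier Slc25a13 differed the most, at 1.38 ± 0.06 in ventricular and -1.33 ± 0.08 in sinus venosus CMs. Ppargc1a was lower in ventricular (-0.39 ± 0.05) and higher in sinus venosus CMs (0.38 ± 0.05). Of the mt- genes 1 was higher in ventricular, 2 in atrial, 2 in sinus venosus and 1 in outflow CMs, and 0, 3, 0 and 2 were lower, whereas with library size alone 10 of 13 were higher in sinus venosus and 9 of 13 lower in atrial CMs.

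Ventricular CMs formed a cluster with high Nppa (53.1 UMIs per 10000), a gene of trabecular myocardium, and a cluster with low Nppa (19.2), and their comparison was added after the data had been seen. The summed level of the 83 genes was 727, 731, 851 and 863 in the Nppa-high cells of libraries 5, 6, 7 and 8 and 645, 647, 716 and 741 in the Nppa-low cells, 1.13- to 1.19-fold within libraries. In Nppa-low cells 80 of the 83 genes were called lower and 0 higher by edgeR (82 had an unadjusted p under 0.05), with a median log2 difference of -0.35, beside 4091 genes higher and 4325 lower of 13393 with a median of -0.02. The mt- genes went the other way in their sum, at 0.870 to 0.972 of the Nppa-low level. Mki67, a proliferation marker, was at 1.96 in the Nppa-low and 0.36 in the Nppa-high cluster, and the depth was 32344 to 71181 UMIs per cell against 20905.5 to 43869. The part of these in the difference was not tested.

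Between genotypes no gene of the set passed the test in any cell type. In CMs the summed level was 709 (library 5) and 819 (library 7) UMIs per 10000 without the deletion and 699 (library 6) and 837 (library 8) with it, a difference of 3.45. Haemoglobin RNA also moved with genotype, at 85.2 and 40.0 in the EdCs of controls and 14.9 and 14.1 in those of Tie2-cko, and its part in the results was not tested. In EdCs, where Cre acts, the summed level of the 83 genes was 334 and 393 in controls and 300 and 376 in Tie2-cko, a difference of -25.3 that became 12.9 without library 6. In MCs and epicardial cells the differences were -13.7 and -13.7. In each of these types the libraries of the 2 genotypes overlapped or interleaved, and the exact permutation test, two-sided, gave p = 1.00, 0.667, 0.667 and 1.00, where 0.333 is the smallest that 2 against 2 libraries allow. The study's methods describe 2 hearts per genotype from a litter, but the labels tie no library to a heart, so these tests measure the spread between 4 libraries.

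By edgeR 0 of the 83 genes were called in CMs (0.0% of all genes), EdCs (0.00798%), MCs (0.0%) and epicardial cells (0.0335%, with 82 of the 83 tested), and an unadjusted p under 0.05 was found for 0, 3, 0 and 0 genes. DESeq2 also called 0 in each, with 0, 2, 0 and 0 at an unadjusted p under 0.05. The shares of all genes under this unadjusted limit are not given here, so these counts have no background beside them. The median log2 difference was -0.01 in CMs, -0.16 in EdCs, -0.12 in MCs and -0.06 in epicardial cells, against 0.01, 0.00, 0.00 and 0.00 over all genes, and 79 of 83 values lay below 0 in EdCs (68 of 83 and a median of -0.11 with library size alone, which moved the median of all genes to 0.06). Both Tie2-cko libraries were below both controls for 3 of the 83 genes in CMs (6.22% of all genes), 23 in EdCs (11.4%), 11 in MCs (7.38%) and 9 in epicardial cells (9.12%), and above both for 5 (11.1%), 0 (25.4%), 1 (17.5%) and 2 (15.0%). In chamber EdCs 22 genes were below both controls (13.5% of all genes) and 0 above (24.5%), and in cushion EdCs 16 were below (9.9%) and 0 above (19.2%).

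The 3 genes with an unadjusted p under 0.05 in EdCs were all of complex I, the largest group with 36 of the 83 genes. Whether complex I stands out among the 83 was not tested. Ndufs8, a core iron-sulphur subunit, stood at 1.52 (library 5) and 1.63 (library 7) UMIs per 10000 in controls, and at 1.14 (library 6) and 1.41 (library 8) with the deletion (log2 difference -0.36 ± 0.13, edgeR adjusted p = 0.917). Ndufa9, at the junction of the arms of the complex, stood at 1.10 and 1.19 against 0.912 and 1.01 (-0.30 ± 0.12), and Ndufv1, which binds NADH, at 1.25 and 1.15 against 1.02 and 1.03 (-0.29 ± 0.12), both with an adjusted p of 0.917. Tie2-cko libraries were lower for each of the 3, and none passed the threshold. In CMs the smallest p belonged to Cox8b (0.19 ± 0.12), Ndufb1-ps (0.22 ± 0.15) and Atp5k (0.14 ± 0.10), all above 0 in Tie2-cko with an adjusted p of 1.00; in MCs to Cox6b2 (-0.30 ± 0.14), Ndufs7 (-0.24 ± 0.14) and Cox7a2l (-0.21 ± 0.12), and in epicardial cells to Ndufs7 (-0.22 ± 0.14), Ndufa9 (-0.20 ± 0.14) and Ndufb7 (-0.30 ± 0.21).

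**Figure D5:**
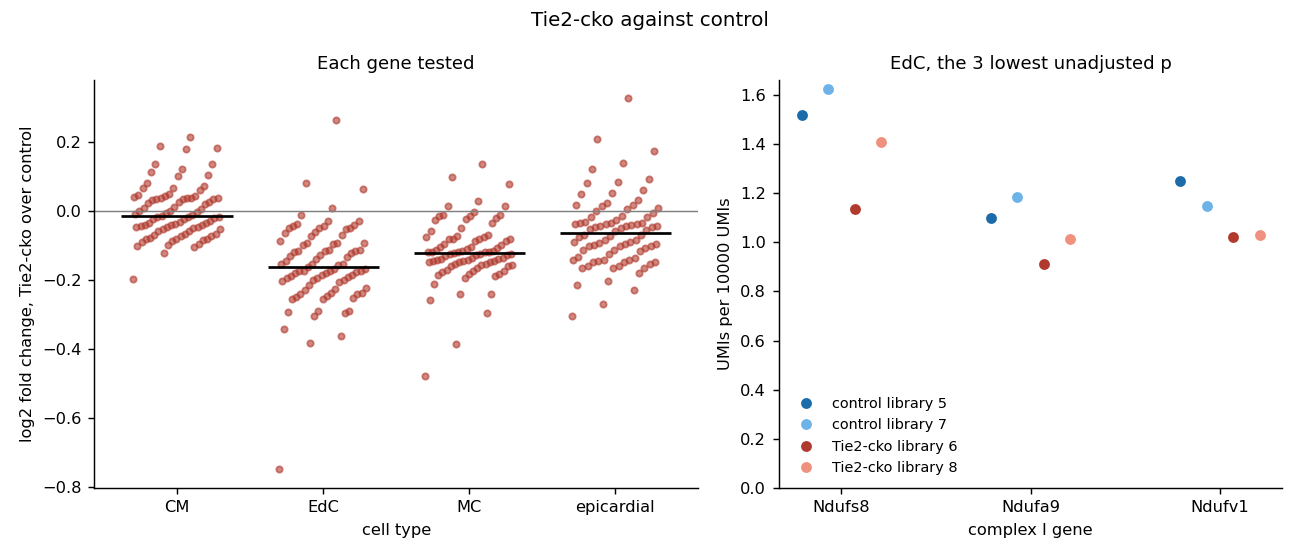
Left, log2 fold change of Tie2-cko over control for each of the 83 genes (82 in epicardial cells) by cell type, with a line at the median. Right, levels of the 3 complex I genes of lowest unadjusted p in EdCs, with a dot per library. The EdC values lie mostly below 0 with a median of -0.16, and no gene passed the test.

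The libraries also differed apart from genotype. An unnamed cluster led by Cxcl13, Barx1 and Foxf1 held 540 and 573 cells of libraries 5 and 6 and 1 and 2 of libraries 7 and 8. Another, led by Ndnf, Dkk2 and Mab21l2, held 140 and 171 against 13 and 3. The reason for this difference in cell content was not tested. Libraries 5 and 6 were both below libraries 7 and 8 for 59 of the 83 genes in CMs (33.3% of all genes) and for 49 in EdCs (19.6%), and above both for 12 (33.4%) and 6 (26.7%). With a block for libraries 5 and 6 against 7 and 8, an arrangement that no label gives, 11 of the 83 genes were called lower in the EdCs of Tie2-cko and 0 higher by edgeR (3.44% of all genes lower), with a median of -0.16. Among them were Ndufa8, Ndufa9, Ndufa11, Ndufa12, Ndufb7, Ndufs6, Ndufs8 and Ndufv1 of complex I with Atp5g1 and Ndufa4l2, at -0.76 to -0.26, led by Ndufs8 (-0.36 ± 0.08, adjusted p = 0.000562) and Atp5g1 (-0.38 ± 0.09, adjusted p = 0.00198). These genes were called with that block alone, and the names were picked out after their values had been seen. Ndufs8, Ndufa9 and Ndufv1 are also those named above by the smallest p without the block, in a fit of the same counts. Contractile transcripts of CMs moved in the same fit as well: Myl2 (-0.43, adjusted p = 3.13e-05) and Tnni3 (-0.34, adjusted p = 0.00663) were called lower in EdCs, while Myl7, Myl4, Tnnc1, Tnnt2 and Actc1 stood at 0.04 to -0.18 and were not called. The haemoglobin gene Hbb-y stood at -2.38 in EdCs. In chamber EdCs the block called 8 of the 83 genes lower (3.59% of all genes), beside Myl2 at -0.32 and Myl7 at 0.27, both called. In cushion EdCs it called only Cox6a2 (-0.55, 0.561% of all genes lower), beside Actc1 at -0.54, Myl2 at -0.58 and Tnnt2 at -0.47, all called lower. In MCs it likewise called only Cox6a2 (-0.48 ± 0.10, 0.553% of all genes lower), beside Myl2 at -0.96, Myl7 at -0.76 and Tnnt2 at -0.49. The part of contractile and haemoglobin RNA in these calls was not tested. Tek, the deleted gene, was lower in the MCs of Tie2-cko as well in this fit, at -2.31, beside -2.49 in cushion EdCs. In CMs the block called 0 genes of the set by edgeR, with 5 at an unadjusted p under 0.05, and in ventricular CMs it called Cox8b higher (0.34 ± 0.07, 0.116% of all genes higher). Other regions did not share this rise. With the block Cox8b stood at -0.60 in atrial (edgeR adjusted p = 0.0599), -0.06 in sinus venosus and 0.08 in outflow CMs, and was not called there.

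Whether the genotype difference itself differed between EdCs and CMs was tested with a cell type by genotype term. By edgeR 0 of the 83 genes passed (0.0445% of all genes did), with a median of -0.16 against -0.01 over all genes, 80 of 83 values below 0 and 36 with an unadjusted p under 0.05. The shares of all genes below 0 and under that unadjusted limit are not given here, so these counts have no background beside them. Atp5g1 had the smallest p of the set, with a log2 difference between the EdC and CM effects of -0.30 ± 0.08 and an adjusted p of 0.249. A difference between the cell types in the response of these genes was therefore not shown. Of the mt- genes 0 of 13 had an unadjusted p under 0.05 in this test, and 6 lay above and 7 below 0.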

How the data were processed

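The authors made the deposited count tables from 10x reads with Cell Ranger, version 6.1.2 per the file headers, on build mm10 per the submitters' processing notes; the values are raw UMI counts per gene and barcode. Totals were 169361996 to 259775540 UMIs and 8877 to 18488 barcodes per library. Cells with at least 500 genes and 1000 UMIs and at most 10% mt- UMIs were kept, and the highest doublet scores were removed at 0.8% per 1000 barcodes. Clusters came from Seurat 5.3.0 (R 4.3.3, 2000 variable genes, 30 components, 20 neighbours, resolution 0.8) without the genes described, their mt- partners and pathway genes, and were named from marker lists. A cluster with a median UMI count under 0.3333 of its library's was left unnamed, as was a cluster that did not meet the marker criteria. For each library the counts of a cell type's cells were added up and tested with edgeR 4.0.16 (quasi-likelihood, TMM, filterByExpr, Benjamini-Hochberg over all genes, threshold 0.05), with the library as a block between cell types and regions; the ± beside a log2 fold change is its size over the square root of F. Genotype was tested without a covariate. The alternatives were DESeq2 1.42.0, other normalizations, filters, clusterings and each library left out. Scripts were tested on simulated data. The genes and lists were chosen with earlier results of these data known. Named by rule were the isoform sets, the core subunits, up to 5 genes per direction with the largest called changes of the same sign in 4 libraries, and for genotype the 3 smallest p where none passed. Wilson intervals cover counting error only. Values of some single genes are not reported here.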

Additional observations from a re-analysis of the deposited data

How the results depend on the processing

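Under the alternatives, 440 values of the main results kept their direction and stayed within their limits, 36 moved and 12 changed sign; the cause was not tested. All 520 values for genes named by region kept direction and call, but these genes had been picked for large called changes of the same sign in every library. Counts of the 83 genes by region moved most. The shares of all genes called under each alternative are not given here, so the counts below have no background beside them. In ventricular CMs 22 were higher with stricter cell filters and 23 with no doublets removed, and 33 were lower with library size alone and 29 with no doublets removed. In atrial CMs 30 were higher and 25 lower with library size alone, and 38 and 16 at resolution 1.2. In sinus venosus CMs 33 were higher and 27 lower with library size alone, and 11 and 15 were higher at resolutions 0.4 and 1.2. In outflow CMs 10 were higher without the filter on low counts, 25 with library size alone, 26 with stricter cell filters and 38 at resolution 1.2, and 8, 36 and 11 were lower with stricter cell filters and at resolutions 0.4 and 1.2. Leaving out each library gave 7 to 12 higher in sinus venosus CMs (12 without library 6), and 9 to 16 higher (9 without library 5) and 15 to 24 lower (15 without library 8) in outflow CMs.

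The labels give the libraries no shared replicate numbers, so a block for libraries 5 and 6 against 7 and 8 is 1 possible pairing among those the labels allow. It called 11 of the 83 genes lower in EdCs, 8 in chamber EdCs, 1 in cushion EdCs (Cox6a2) and 1 in MCs (Cox6a2), and 1 higher in ventricular CMs (Cox8b), beside 431, 413, 63 and 70 genes lower and 17 higher over all genes tested. Within these pairs the summed EdC level was lower in Tie2-cko in both, 300 against 334 and 376 against 393. In the interaction test no filter on low counts gave 2 called genes, and leaving out each library 0 to 4 (4 without library 8), while the genotype test in epicardial cells gave 0 to 1 (1 without library 8). With a library left out, 1 genotype is represented by a single library that is assumed to vary like the others. The difference in summed level, Tie2-cko minus control, then ranged from -65.6 (without library 8) to 72.5 (without library 6) in CMs, and over the same libraries from -63.5 to 12.9 in EdCs, -53.4 to 26.0 in MCs and -52.7 to 25.3 in epicardial cells, so its sign rests on single libraries. For mt- genes it ranged from -38.0 to 13.4 in CMs, -27.7 to 2.87 in EdCs and -25.1 to 2.29 in MCs, and was 0.458 in EdCs with stricter cell filters. The mt- ratio of CMs to MCs was 1.29 with stricter cell filters and 1.47 from pooled counts, and that of CMs to epicardial cells 1.56 with stricter filters. Cox6b2 turned to -0.17 (MCs) and -0.026 (epicardial cells) with library size alone. The 2 libraries per genotype limit the genotype comparison, and Cox8b, Cox4i2 and Ndufa4l2 rest on few UMIs per cell.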
